A study of Mus musculus with 7 samples.

Results

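The costimulatory receptors of T cells are described here through 10 genes: Cd28, Icos, Tnfrsf9, Tnfrsf4, Tnfrsf18, Cd27, Cd226, Tnfrsf1b, Cd2 and Slamf6. They were taken by gene symbol out of 56422 symbols in the deposited table, with the values of all transcripts of a symbol added up. Messenger RNA had been sequenced from mouse samples labelled as CD8+ T cells of malignant ascites, the fluid that collects in the peritoneal cavity, in models of peritoneal metastasis. Treatment was with propionate and butyrate together, both short-chain fatty acids that bacteria of the gut produce, in 3 libraries, and 4 control libraries carry the treatment label none. The sources used here give no strain, age, tumour line, dose or duration. No label tells whether the libraries came from separate animals, so p-values rest on the spread between libraries, and that spread may be technical. Levels are in TPM, a transcript abundance that corrects for transcript length and scales every library to the same total.

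A T cell needs a signal from its antigen receptor and a costimulatory signal to divide and to acquire effector functions. Cd28 and Icos belong to the immunoglobulin superfamily and signal through phosphatidylinositol 3-kinase. The TNF receptor family members recruit TRAF adaptors and activate NF-kB, and Cd2, Slamf6 and Cd226 couple adhesion between cells to signalling. In CD8+ T cells these receptors are known for sustaining expansion, survival and killing.

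The amount of T cell message differed between the groups. The CD3 chain genes Cd3d, Cd3e and Cd3g, which belong to the antigen receptor complex, summed to 278, 662 and 158 TPM in the treated libraries 1, 2 and the third treated library, against 45.0, 46.9, 25.9 and 49.7 TPM in control libraries 1 to 4. Cd8a, the CD8 coreceptor chain, averaged 136 ± 96.2 TPM in treated libraries (SD, n = 3) and 14.1 ± 4.31 TPM in controls (SD, n = 4). Markers of other cells were present in both groups. The 12 macrophage and monocyte markers summed to 3380 to 4142 TPM in treated libraries and 6169 to 14978 TPM in controls, above the 16 T cell markers in all 7 libraries, which summed to 715 to 3103 TPM in treated libraries and 140 to 253 TPM in controls. Of the 12, 2 were called lower, as were 7.59% of all genes tested. Apoe alone averaged 1772 TPM in treated libraries and 5056 TPM in controls, and without it the other 11 summed to 1740 to 2560 TPM in treated libraries and 2336 to 6510 TPM in controls, with overlap. Epithelial and mesothelial markers summed to 856 to 1632 TPM in treated libraries and 2270 to 2733 TPM in controls, and fibroblast and endothelial markers to 124 to 244 TPM in treated libraries and 295 to 336 TPM in controls. The last sum rests on Dcn, which averaged 130 TPM in treated libraries and 250 TPM in controls. Of its endothelial markers, Pecam1 averaged 15.7 TPM in treated libraries and 13.8 TPM in controls with overlap, and Cdh5 and Kdr were at most 0.23 and 0.22 TPM in any library. Sums for natural killer cells (209 to 302 TPM treated, 226 to 635 TPM control), B cells (72.8 to 102 TPM treated, 37.4 to 113 TPM control), neutrophils (49.6 to 117 TPM treated, 19.2 to 430 TPM control) and CD4 and regulatory T cells (47.2 to 89.1 TPM treated, 42.4 to 62.1 TPM control) overlapped between the groups. The sum of the dendritic cell markers did not (33.4 to 82.6 TPM treated, 28.7 to 32.0 TPM control). The natural killer sum rests on Tyrobp and Fcer1g, also made by myeloid cells, which averaged 154 and 90.2 TPM in treated libraries and 220 and 139 TPM in controls, while 5 of the 8 markers were higher in treated libraries without overlap and 2 of the 4 tested were called higher. Of all genes tested, 4.82% were higher without overlap and 4.3% were called higher. The CD4 and regulatory sum rests on Zbtb7b in controls, and on Zbtb7b and Ctla4 in treated libraries. Zbtb7b averaged 31.3 TPM in treated libraries and 46.7 TPM in controls without overlap, and Ctla4 averaged 23.55 TPM in treated libraries and 1.18 TPM in controls. Foxp3, Ccr4 and Ctla4 were higher in treated libraries without overlap, Foxp3 at 0.49 to 0.70 TPM in treated libraries and 0.18 to 0.26 TPM in controls. The dendritic sum rests largely on Ccr7, which averaged 30.9 TPM in treated libraries and 7.83 TPM in controls without overlap. Itgax and Siglech were also higher without overlap, while Flt3, Zbtb46, Xcr1 and Clec9a overlapped. These markers within the lists were picked out after their values were seen. No marker of these 9 lists was at 0 in every library. Genes encoded in the mitochondrial genome took up 15.7% to 32.9% of TPM in treated libraries, highest in the third, and 13.6% to 18.2% in controls. The part of these differences in the results below was not tested, and in bulk samples fewer cells of a type and less RNA per cell cannot be told apart.

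Of the 10 receptors, 8 were higher in treated libraries and none was lower. On the log2 scale given below, Cd226, Cd28 and Cd27 had the largest differences, Tnfrsf18 the smallest among the 8, and Tnfrsf4 and Tnfrsf1b did not pass the test. Among all 14967 genes tested, 643 were called higher, which is 4.3%, and 1136 lower, which is 7.59%, so that 11.9% were called in either direction. With median-of-ratios scaling 1306 were higher and 955 lower, and with quantile normalization 1159 were higher and 1293 lower. A gene was called at an adjusted p under 0.05 by limma's test on log2(TPM + 1) with Benjamini-Hochberg adjustment over all genes tested, and log2 differences are treated minus control on that scale. The order of the receptors depends on the 1 that is added. With 0.5 in its place Cd28 had the largest difference (3.06). With 5 it was Cd2 (2.11), and Cd28 was at 1.59. The median log2 difference was 2.12 over the 10 receptors and -0.24 over all genes tested. All 10 receptors passed the filter on low values, Icos through its treated libraries alone, so that its difference is in part set by the filter.

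Cd28, the receptor for Cd80 and Cd86 on antigen-presenting cells, was at 11.1, 28.1 and 6.52 TPM in treated libraries, against 1.04, 1.13, 0.79 and 1.46 TPM in controls. Every treated library was above every control. The means were 15.3 ± 11.4 TPM in treated libraries (SD, n = 3) and 1.10 ± 0.277 TPM in controls (SD, n = 4), 13.8-fold apart, the largest ratio of means among the 10 receptors. Without treated library 2 the treated mean was 8.82 TPM and the ratio 7.99, again the largest of the 10. On the log scale Cd28 rose by 2.73 with a standard error of 0.35 (95% interval 1.97 to 3.48, limma adjusted p = 0.000492).

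Icos, an inducible relative of Cd28 that binds Icosl, was at 4.44, 11.3 and 2.95 TPM in treated libraries and at 0.85, 0.79, 0.51 and 0.91 TPM in controls. The groups did not overlap. Icos rose by 1.87 with a standard error of 0.32 (95% interval 1.18 to 2.56, limma adjusted p = 0.00226). The 1 added before the log exceeds every control value of Icos. Its log2 difference amounts to 3.65-fold, while the ratio of means was 8.14. The RefSeq annotation of GRCm38.p6 places Cd28 and Icos on chromosome 1 with Ctla4, the inhibitory receptor for the same ligands as Cd28, between them. Ctla4 was at 12.2, 46.7 and 11.8 TPM in treated libraries and at 1.42, 0.56, 1.94 and 0.81 TPM in controls. It rose by 3.24 on the log2 scale (standard error 0.39, limma adjusted p = 0.000414), so that all 3 genes of this cluster were called higher.

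Cd226, also called DNAM-1, binds Pvr and Nectin2 on target cells and takes part in killing. Its level was 20.8, 43.0 and 14.3 TPM in treated libraries and 1.88, 1.02, 5.41 and 2.90 TPM in controls. The lowest treated library was above the highest control, and controls spread 5.30-fold, the widest among the 10 receptors. Cd226 rose by 2.82 with a standard error of 0.38 (95% interval 2.00 to 3.63, limma adjusted p = 0.000588). Tigit, the inhibitory receptor that competes for the same ligands, was at 23.7, 95.1 and 24.6 TPM in treated libraries and at 9.75, 7.62, 4.72 and 5.19 TPM in controls, and rose by 2.38 (standard error 0.39, limma adjusted p = 0.00183).

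Ratios between paired receptors were compared within each library on log2(TPM + 0.1), by an exact permutation test, two-sided, of the group labels. With 35 ways to assign the labels, its smallest p is 0.0286. Icos relative to Cd28 was -1.31, -1.31 and -1.12 in treated libraries and -0.26, -0.47, -0.55 and -0.63 in controls, a difference of -0.77. The groups did not overlap, with exact p = 0.0286, the smallest the design allows, but the p adjusted over the 3 ratios was 0.0857. Ctla4 relative to Cd28 averaged 0.57 ± 0.39 in treated libraries (SD, n = 3) and -0.02 ± 1.00 in controls (SD, n = 4). The difference of 0.58 was smaller than the spread between controls (exact permutation p = 0.4, adjusted p = 0.429). Tigit relative to Cd226 averaged 0.70 ± 0.48 in treated libraries and 1.43 ± 1.37 in controls, and this ratio did not pass either (difference -0.73, exact permutation p = 0.429, adjusted p = 0.429).

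**Figure D1:**
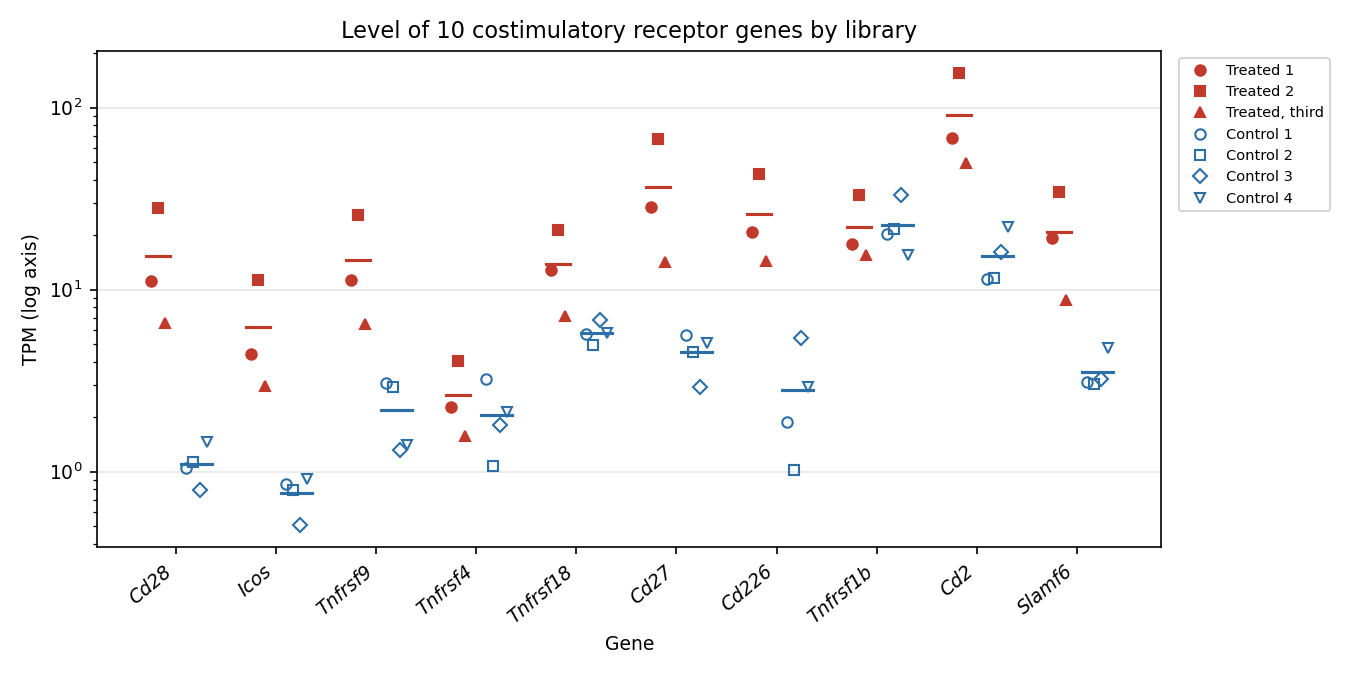
Level of each of the 10 receptors by library, in TPM on a log axis, with the 3 treated libraries (filled) left of the 4 control libraries (open) and a bar at each group mean. The treated points lie above all control points for 8 receptors, and overlap them for Tnfrsf4 and Tnfrsf1b.

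Within the TNF receptor family the members differed among themselves. Tnfrsf9, also called 4-1BB, is induced by activation and promotes survival of CD8+ T cells. Its level was 11.3, 25.8 and 6.51 TPM in treated libraries and 3.05, 2.92, 1.31 and 1.40 TPM in controls, with no overlap. Tnfrsf9 rose by 2.14 with a standard error of 0.36 (95% interval 1.36 to 2.92, limma adjusted p = 0.00208).

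Cd27 is already present on naive T cells, binds Cd70 and supports memory formation. It was at 28.4, 67.2 and 14.2 TPM in treated libraries, against 5.64, 4.54, 2.93 and 5.10 TPM in controls. No control reached the lowest treated library. The log2 difference was 2.52 with a standard error of 0.38 (95% interval 1.71 to 3.33, limma adjusted p = 0.000955), and Cd27 had the widest spread between treated libraries of the 10 receptors, 4.75-fold.

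Tnfrsf18, also called GITR, is high on regulatory T cells and induced on other T cells. Its level was 12.8, 21.3 and 7.15 TPM in treated libraries and 5.72, 4.96, 6.79 and 5.75 TPM in controls. The third treated library lay close to control 3, and the groups did not overlap. Tnfrsf18 rose by 1.00 (standard error 0.29, 95% interval 0.39 to 1.62, limma adjusted p = 0.0368). This call was lost without treated library 1 (0.99, limma adjusted p = 0.0741), without treated library 2 (0.65, adjusted p = 0.148) and without control 2 (0.94, adjusted p = 0.0635).

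Tnfrsf4, also called OX40, supports survival of activated T cells. It was at 2.25, 4.05 and 1.57 TPM in treated libraries and at 3.21, 1.08, 1.81 and 2.13 TPM in controls. The groups overlapped, and the log2 difference of 0.23 had a 95% interval of -0.39 to 0.85 (limma adjusted p = 0.608). Its neighbour on chromosome 4 in the same annotation is Tnfrsf18, which was called higher, and the difference between these neighbours was not tested.

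Tnfrsf1b, or TNF receptor 2, binds Tnf and is made by myeloid and endothelial cells as well as by T cells. Its level was 17.8, 33.1 and 15.5 TPM in treated libraries and 20.3, 21.4, 33.2 and 15.6 TPM in controls. The ranges of the groups were nearly the same. The means were 22.1 ± 9.57 TPM in treated libraries (SD, n = 3) and 22.6 ± 7.49 TPM in controls (SD, n = 4), and the log2 difference of -0.05 had a 95% interval of -0.66 to 0.55 (limma adjusted p = 0.914). Under other scalings the sign turned, with 0.21 by median-of-ratios factors and 0.14 by quantile normalization, and the gene was not called. Among controls Tnfrsf1b was highest in control 3, the library with the highest macrophage and monocyte sum.

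The promoters of TNF receptor family members with a motif match are shown because these genes belong to 1 protein family and differed in their calls. The window of Tnfrsf4 was read and is not printed. RefSeq sequences of the 250 bases before the start were read for 6 of the 10 receptors (build GRCm38.p6, while the deposited values were made on mm39). They were searched on both strands for NF-kB as GGGNNNTTCC, AP-1 as TGANTCA, RUNX as TGTGGT, NFAT as GGAAAA and ETS as CCGGAA, which occur in 4.648%, 6.749%, 14.05%, 20.43% and 12.03% of 32851 promoters of the same length. Capitals mark the matches, read 5' to 3' on the gene's strand, and no motif overlapped another. Tnfrsf9 has 2 starts, at chr4:150919905-150920154 and chr4:150927749-150927998 on the plus strand. Cd27 lies at chr6:125237028-125237277 on the minus strand, Tnfrsf18 at chr4:156026072-156026321 on the plus strand and Tnfrsf1b at chr4:145246871-145247120 on the minus strand.
Tnfrsf9 first start: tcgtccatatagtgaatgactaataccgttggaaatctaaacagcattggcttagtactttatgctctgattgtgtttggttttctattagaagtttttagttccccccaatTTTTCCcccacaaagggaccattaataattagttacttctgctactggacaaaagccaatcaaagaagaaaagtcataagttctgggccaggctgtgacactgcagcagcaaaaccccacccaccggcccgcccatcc
Tnfrsf9 second start: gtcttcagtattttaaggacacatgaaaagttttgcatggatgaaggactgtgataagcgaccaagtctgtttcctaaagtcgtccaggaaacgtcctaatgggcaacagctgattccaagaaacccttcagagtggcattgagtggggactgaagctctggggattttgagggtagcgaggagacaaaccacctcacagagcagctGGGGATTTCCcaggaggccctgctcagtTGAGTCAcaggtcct
Cd27: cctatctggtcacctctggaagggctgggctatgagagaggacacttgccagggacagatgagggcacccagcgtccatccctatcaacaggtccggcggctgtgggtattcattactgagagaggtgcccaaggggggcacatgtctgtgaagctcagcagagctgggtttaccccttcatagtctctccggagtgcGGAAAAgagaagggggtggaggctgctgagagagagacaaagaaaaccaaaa
Tnfrsf18: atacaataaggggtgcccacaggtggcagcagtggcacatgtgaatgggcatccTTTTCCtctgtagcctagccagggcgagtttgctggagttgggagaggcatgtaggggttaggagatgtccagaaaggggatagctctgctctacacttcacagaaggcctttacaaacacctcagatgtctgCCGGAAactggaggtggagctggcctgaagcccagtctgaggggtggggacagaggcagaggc
Tnfrsf1b: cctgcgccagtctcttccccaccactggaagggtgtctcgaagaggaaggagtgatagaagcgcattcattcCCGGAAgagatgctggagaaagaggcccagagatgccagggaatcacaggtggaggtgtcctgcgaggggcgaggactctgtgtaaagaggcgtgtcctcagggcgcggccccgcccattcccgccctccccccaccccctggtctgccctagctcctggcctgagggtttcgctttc
The second Tnfrsf9 start held the NF-kB letters GGGGATTTCC at 43 to 34 bases and the AP-1 letters TGAGTCA at 15 to 9 bases before the start, and it was the 1 window among the 6 receptors with either motif. NFAT letters stood in the first Tnfrsf9 window at 138 to 133 bases, in Cd27 at 52 to 47 bases and in Tnfrsf18 at 196 to 191 bases before the start. ETS letters stood in Tnfrsf18 at 63 to 58 bases and in Tnfrsf1b at 178 to 173 bases. The windows of Tnfrsf4 and Slamf6 held no match of the 5 motifs. A match is a run of letters and not a measured site. The deposited values do not tell which Tnfrsf9 start was used.

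Cd2 binds Cd48 in the mouse and strengthens contact with other cells. It was at 68.3, 154 and 49.5 TPM in treated libraries and at 11.4, 11.6, 16.2 and 22.2 TPM in controls. It was the most abundant of the 10 receptors in every treated library. Cd2 rose by 2.37 with a standard error of 0.33 (95% interval 1.67 to 3.08, limma adjusted p = 0.000633).

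Slamf6, also called Ly108 in the mouse, binds itself on neighbouring cells and signals through the adaptor Sh2d1a. Its level was 19.2, 34.45 and 8.78 TPM in treated libraries, against 3.12, 3.01, 3.22 and 4.75 TPM in controls. No library of one group reached the other. Slamf6 rose by 2.10 with a standard error of 0.34 (95% interval 1.37 to 2.82, limma adjusted p = 0.00151).

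The groups did not overlap, with treated higher, for 8 of the 10 receptors and for 722 of the 14967 genes tested, which is 4.82%. Treated library 2 was the highest treated library for 10 of 10 receptors and the highest of all 7 libraries for 9, and the third treated library was the lowest treated one for 10 of 10. The CD3 sum followed the same order. With the log2 CD3 sum of each library as a covariate, 0 receptors were called by limma, 1 at an unadjusted p under 0.05, and 11 genes in all. With the macrophage and monocyte sum as a covariate, 5 were called, and Icos, Tnfrsf9 and Tnfrsf18 were not, with log2 differences of 1.39, 1.49 and 1.04. Neither of these sums overlapped between the groups, so neither fit can separate its covariate from treatment. Without a filter on low values limma called 0 receptors and 7 of 29687 genes, and 8 receptors had an unadjusted p under 0.05.

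**Figure D2:**
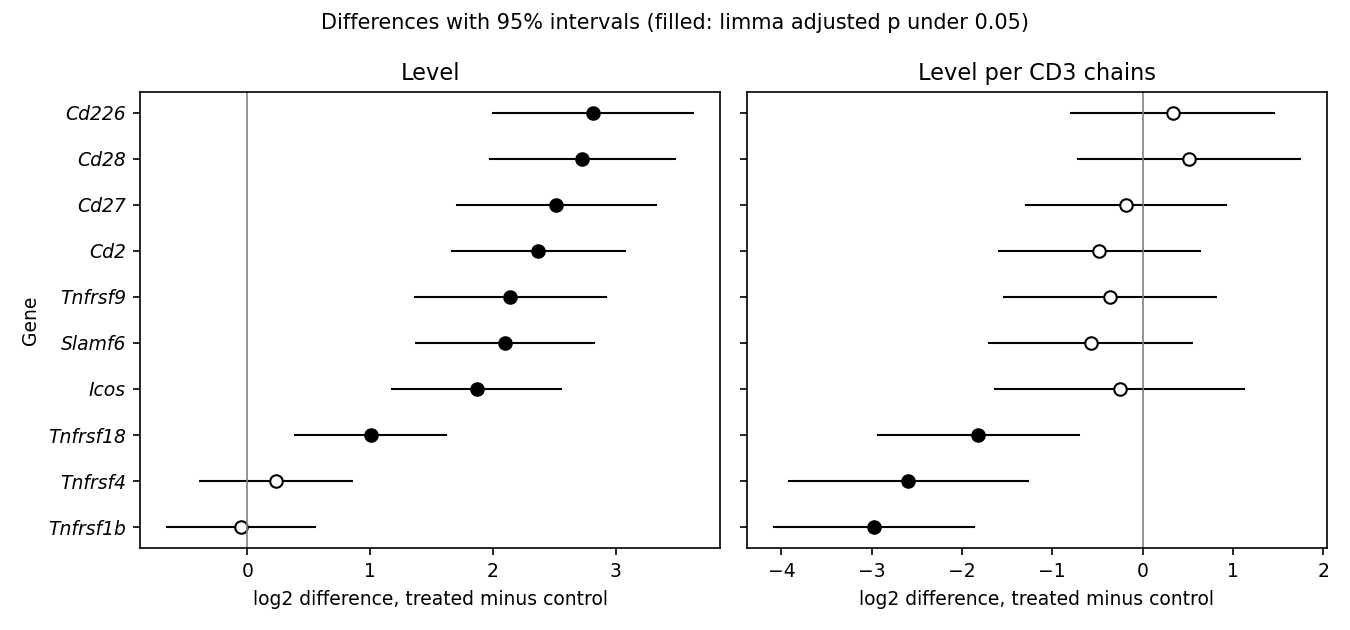
Treated minus control difference of each receptor, with its 95% interval from limma's fit across all genes tested and called receptors filled. The left panel is on log2(TPM + 1) and the right panel on log2(TPM + 0.1) minus the log2 CD3 sum. On the left the intervals of 8 receptors lie above 0, from Tnfrsf18 at 1.00 to Cd226 at 2.82, and those of Tnfrsf4 and Tnfrsf1b include 0. On the right the intervals of Tnfrsf1b, Tnfrsf4 and Tnfrsf18 lie below 0 and those of the other receptors include 0.

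The composition of the receptor set differed as well. The 10 genes summed to 196, 423 and 127 TPM in treated libraries and to 56.2, 52.4, 72.2 and 62.1 TPM in controls. Cd2 led in all treated libraries, while Tnfrsf1b led in controls 1, 2 and 3 and Cd2 in control 4. Tnfrsf1b made up 9.71% ± 2.26 of the sum in treated libraries (SD, n = 3) and 37.0% ± 8.93 in controls (SD, n = 4). Tnfrsf18 made up 5.73% ± 0.735 in treated libraries and 9.58% ± 0.411 in controls. The shares of Cd28 (5.82% ± 0.769 treated, 1.86% ± 0.552 control) and Cd27 (13.8% ± 2.43 treated, 7.74% ± 2.57 control) ran the other way. None of these 4 shares overlapped between the groups, nor did those of Icos, Tnfrsf4 and Cd226, while those of Tnfrsf9, Cd2 and Slamf6 did. Shares add up to a fixed total, so they follow from the level differences above and are no separate result. No test was made on them. The lowest receptor was Tnfrsf4 in every treated library and Icos in every control. In the middle of the treated order Cd28, Tnfrsf9 and Tnfrsf18 averaged 15.3 ± 11.4, 14.5 ± 10.04 and 13.7 ± 7.12 TPM (SD, n = 3), which did not differ beyond their spread.

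Each receptor was then set against the CD3 sum of its own library, which asks how much receptor message there was per unit of CD3 message. On this scale 3 receptors, Tnfrsf1b, Tnfrsf4 and Tnfrsf18, were called lower in treated libraries, 7 were not called and none was called higher. Against the same sum 14423 of the 14967 genes tested were called lower, which is 96.4%, and 14 higher, which is 0.0935%, or 96.5% in either direction. A lower call is therefore what nearly every gene of the table had, and 530 of the genes tested were not called. The median log2 difference per CD3 was -0.42 over the receptors and -3.20 over all genes tested. On this scale limma's standard errors were 0.56 to 0.70 for the receptors, set almost wholly by variance shared across genes. A receptor's own spread between libraries hardly entered them, and all ratios of a library share 1 CD3 sum.

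Cd28 was at 4.01, 4.25 and 4.13 TPM per 100 TPM of CD3 message in treated libraries and at 2.31, 2.41, 3.05 and 2.94 in controls. It was the 1 receptor whose treated libraries were all above the controls on this scale, which held for 14 genes, 0.0935% of those tested. The log2 difference of 0.52 did not pass limma's test (95% interval -0.71 to 1.75, adjusted p = 0.416) or the exact permutation test (p = 0.0571). With Ptprc, the pan-leukocyte gene CD45, in place of the CD3 chains, Cd28 was called higher (1.27, limma adjusted p = 0.0363), and likewise with limma's library weights (0.58, adjusted p = 0.000246). At a pseudocount of 1 its difference was -0.19.

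Icos kept the narrowest range per CD3, from 1.60 to 1.87 TPM per 100 TPM of CD3 message in treated libraries and from 1.68 to 1.97 in controls. Over the 7 libraries the highest was 1.23 times the lowest, while the CD3 sum itself ranged 25.6-fold. Cd27 followed with 8.97 to 10.2 in treated libraries and 9.68 to 12.5 in controls, a range of 1.40-fold. The 95% intervals of the log2 differences per CD3 were -1.63 to 1.13 for Icos and -1.29 to 0.92 for Cd27. They reflect the variance shared across genes and not the narrow ranges of Icos and Cd27. For Icos the interval held a change of more than 2-fold in either direction.

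Cd2 ran from 23.3 to 31.3 TPM per 100 TPM of CD3 message in treated libraries and from 24.6 to 62.6 in controls, and Slamf6 from 5.20 to 6.93 in treated libraries and from 6.42 to 12.5 in controls. Tnfrsf9 was steady among treated libraries, at 3.89 to 4.13, and ran from 2.82 to 6.78 in controls. Cd226 was at 6.49 to 9.04 in treated libraries and at 2.17 to 20.9 in controls, where control 3 was the highest. These 4 receptors overlapped between the groups and were not called (limma adjusted p between 0.319 for Slamf6 and 0.570 for Cd226).

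Tnfrsf1b was at 6.42, 5.0 and 9.82 TPM per 100 TPM of CD3 message in treated libraries, against 45.1, 45.6, 128 and 31.4 in controls. Tnfrsf4 was at 0.81, 0.61 and 1.00 in treated libraries and at 7.13, 2.30, 7.0 and 4.29 in controls. Tnfrsf18 was at 4.597, 3.22 and 4.53 in treated libraries and at 12.7, 10.6, 26.3 and 11.6 in controls. For these 3 receptors no treated library reached a control, which was also so for 94% of the genes tested. The differences were 7.88-fold lower for Tnfrsf1b (limma adjusted p = 2.37e-07), 6.03-fold lower for Tnfrsf4 (adjusted p = 0.000145) and 3.53-fold lower for Tnfrsf18 (adjusted p = 0.00146). These limma p-values rest on variance shared across genes and not on each receptor's own spread. The exact permutation test gave each of the 3 receptors its smallest p of 0.0286, as it did for 91.9% of the genes tested. Tnfrsf18 lost its call with Ptprc as the reference (limma adjusted p = 0.0583) and in the replicate block over 4 libraries (-1.61, adjusted p = 0.0733). Of the 10 ratios to CD3, 6 were highest in control 3, those of Tnfrsf18 and Tnfrsf1b among them, and this library had the lowest CD3 sum and the highest macrophage and monocyte sum. The part of these sums in the 3 calls was not tested. Control 3 left out, the count of receptors called lower per CD3 was again 3.

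**Figure D3:**
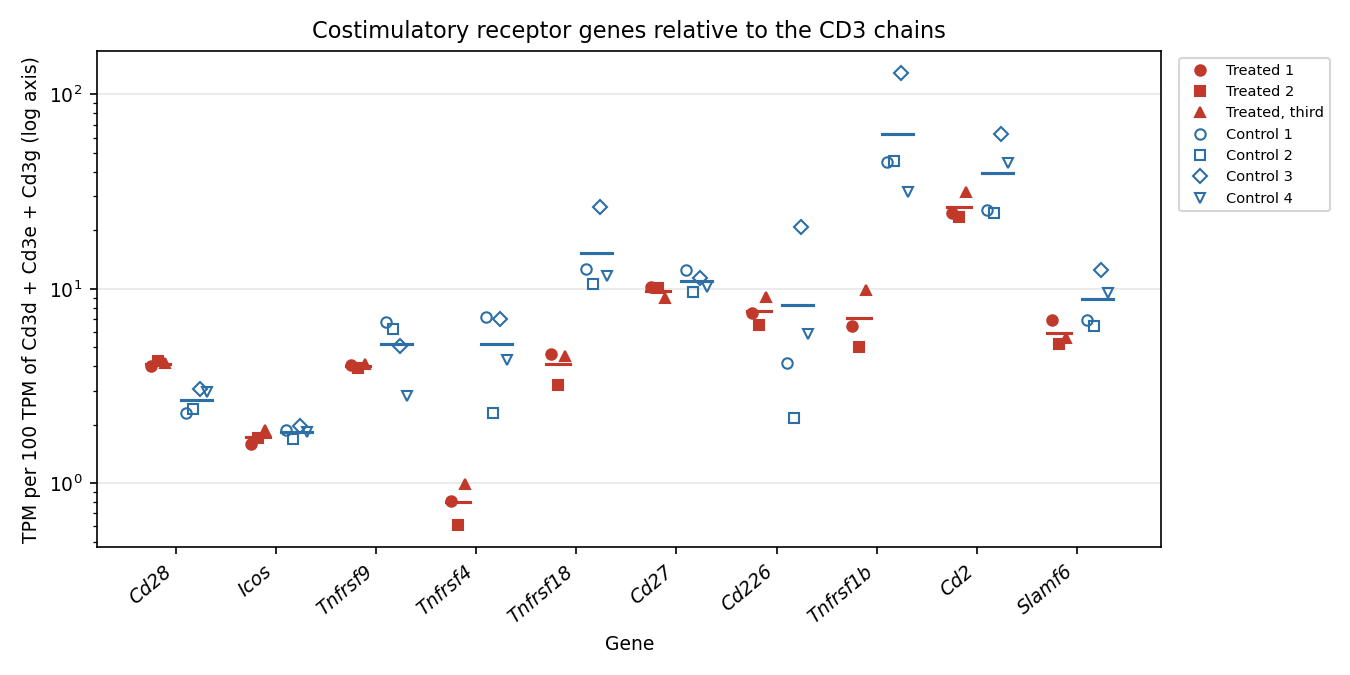
TPM of each receptor per 100 TPM of summed Cd3d, Cd3e and Cd3g, by library on a log axis, treated (filled) left of control (open), with a bar at each group mean. Tnfrsf1b, Tnfrsf4 and Tnfrsf18 lie lower in all treated libraries, Cd28 lies at 4.01 to 4.25 in treated libraries above 2.31 to 3.05 in controls, and the other receptors overlap.

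Of the 12 ligands of these receptors 8 were tested, with 1 called higher and 1 lower, and their median log2 difference was 0.25. Beside these and the lists below, 4.3% of all genes tested were called higher and 7.59% lower, with a median of -0.24. Nectin2, a ligand of Cd226 and Tigit made by epithelial, tumour and myeloid cells, was at 118, 82.8 and 67.6 TPM in treated libraries and at 151, 195, 159 and 141 TPM in controls. It fell by 0.87 on the log2 scale (standard error 0.22, limma adjusted p = 0.0193), with no overlap. The call was lost in 3 of the 7 fits that left out 1 library. These were without treated library 2 (-0.84, limma adjusted p = 0.0556), without the third treated library (-0.69, adjusted p = 0.0549) and without control 2 (-0.78, adjusted p = 0.0606). It was also lost with the macrophage covariate, the CD3 covariate, the replicate block and no filter, in all in 7 of 20 alternatives. Pvr, the other ligand of this pair, was at 26.4, 21.7 and 15.8 TPM in treated libraries and at 30.9, 31.7, 29.8 and 30.1 TPM in controls. Every treated value was below every control value, and the difference of -0.53 was not called (limma adjusted p = 0.0977). Treated lower without overlap was found for 3845 genes, 25.7% of those tested.

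Cd48, the mouse ligand of Cd2 and a general leukocyte gene, was at 47.0, 93.3 and 34.3 TPM in treated libraries and at 25.7, 15.9, 40.4 and 21.8 TPM in controls. It rose by 1.09 (limma adjusted p = 0.0448), although the third treated library lay below control 3. This call was lost in 5 of the 7 fits that left out 1 library (without any 1 of the treated libraries, control 2 or control 4), where limma's adjusted p was 0.0519 to 0.149. The Cd28 ligands Cd80 and Cd86, made by antigen-presenting cells, averaged 2.46 and 5.79 TPM in treated libraries and 1.62 and 4.01 TPM in controls, with overlap and limma adjusted p = 0.332 and 0.281. Icosl differed by -0.16 (limma adjusted p = 0.602), Tnfsf9, the ligand of Tnfrsf9, by 0.10 (adjusted p = 0.850) and Tnf by 0.44 (adjusted p = 0.394). Tnfsf4, Tnfsf18, Cd70 and Lta did not reach the filter. The Cd27 ligand Cd70 was at 0.12, 0.10 and 0 TPM in treated libraries and was listed at 0 in all controls. Tnfsf4 averaged 0.92 TPM in treated libraries and 0.29 TPM in controls, Lta 1.58 TPM in treated libraries and 0.38 TPM in controls, and Tnfsf18 was at most 0.11 TPM in any library.

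Downstream of the receptors, 9 of 22 signalling genes were called higher and 1 lower, with a median log2 difference of 0.24. Without treated library 2 the counts were 5 higher and 1 lower, while all 14967 genes tested gave 433 higher and 531 lower. Among the 9, Grap2, the adaptor that links Cd28 and Lat to Lcp2, rose by 2.65, with 39.3 ± 25.0 TPM in treated libraries (SD, n = 3) and 4.62 ± 1.23 TPM in controls (SD, n = 4). Prkcq, the kinase that carries the Cd28 signal towards NF-kB, rose by 2.71. Sh2d1a, the adaptor of Slamf6, rose by 2.75, at 19.0, 52.1 and 10.8 TPM in treated libraries and 1.88, 3.79, 2.66 and 1.83 TPM in controls. For these 3 genes limma's adjusted p was between 0.000564 and 0.000784. The 1 signalling gene called lower was Nfkb2, the precursor of the p52 subunit of NF-kB, named after its value was seen, which was at 30.8, 32.6 and 20.4 TPM in treated libraries and at 40.8, 49.6, 46.4 and 42.9 TPM in controls (log2 difference -0.69, limma adjusted p = 0.0425). It was not called when any 1 of the 4 controls was left out (limma adjusted p = 0.0783 to 0.117).

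Among 15 other costimulatory receptors 12 were tested, 6 were called higher and none lower, with a median log2 difference of 0.89. Slamf1 and Crtam, 2 of the 6, reached the filter through their treated libraries alone, so their differences are in part set by it. Klrk1, the activating receptor NKG2D, rose by 2.72 and was at 21.3, 61.3 and 27.3 TPM in treated libraries and at 4.80, 4.15, 3.43 and 4.42 TPM in controls. Cd5 and Cd6, scavenger-type receptors that tune antigen receptor signals, rose by 2.68 and 2.64, and Crtam, an adhesion receptor of activated cytotoxic cells, by 2.12 (limma adjusted p between 0.000277 and 0.00118 for these 4). All 8 inhibitory receptors of the list were tested and called higher, with a median log2 difference of 2.25, Pvrig through its treated libraries alone. With robust variance estimation 4 of the 8 were called, and with the macrophage covariate 3. Apart from Ctla4 and Tigit, Pdcd1, which encodes PD-1, rose by 2.41 (limma adjusted p = 0.00408) and Cd96, a further Pvr receptor, by 2.39 (adjusted p = 0.000856).

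Of 16 activation genes 14 were tested, with 4 called higher and none lower. Their median log2 difference was 0.11. The 4 were Ifng, the cytokine interferon gamma, at 2.79, Tnfaip3, an inhibitor of NF-kB induced by it, at 2.76, Cd69, an early activation antigen, at 2.57, and Batf, a transcription factor of effector T cells, at 1.59 (limma adjusted p between 0.000277 and 0.0117). Without treated library 1 the counts were 5 higher and 2 lower, while all 14967 genes tested gave 524 higher and 2910 lower. Ifng was at 19.4, 44.0 and 17.8 TPM in treated libraries and at 4.17, 2.63, 2.76 and 1.77 TPM in controls. All 16 T cell markers were called higher, with a median log2 difference of 2.83, although Bcl11b reached the filter through its treated libraries alone. Per CD3 none of the 16, which include the CD3 chains, was called. Per CD3, 7 of the 8 inhibitory receptors, 5 of the 12 other costimulatory receptors and 4 of the 22 signalling genes were not called, and the rest of each list was called lower.

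**Figure D4:**
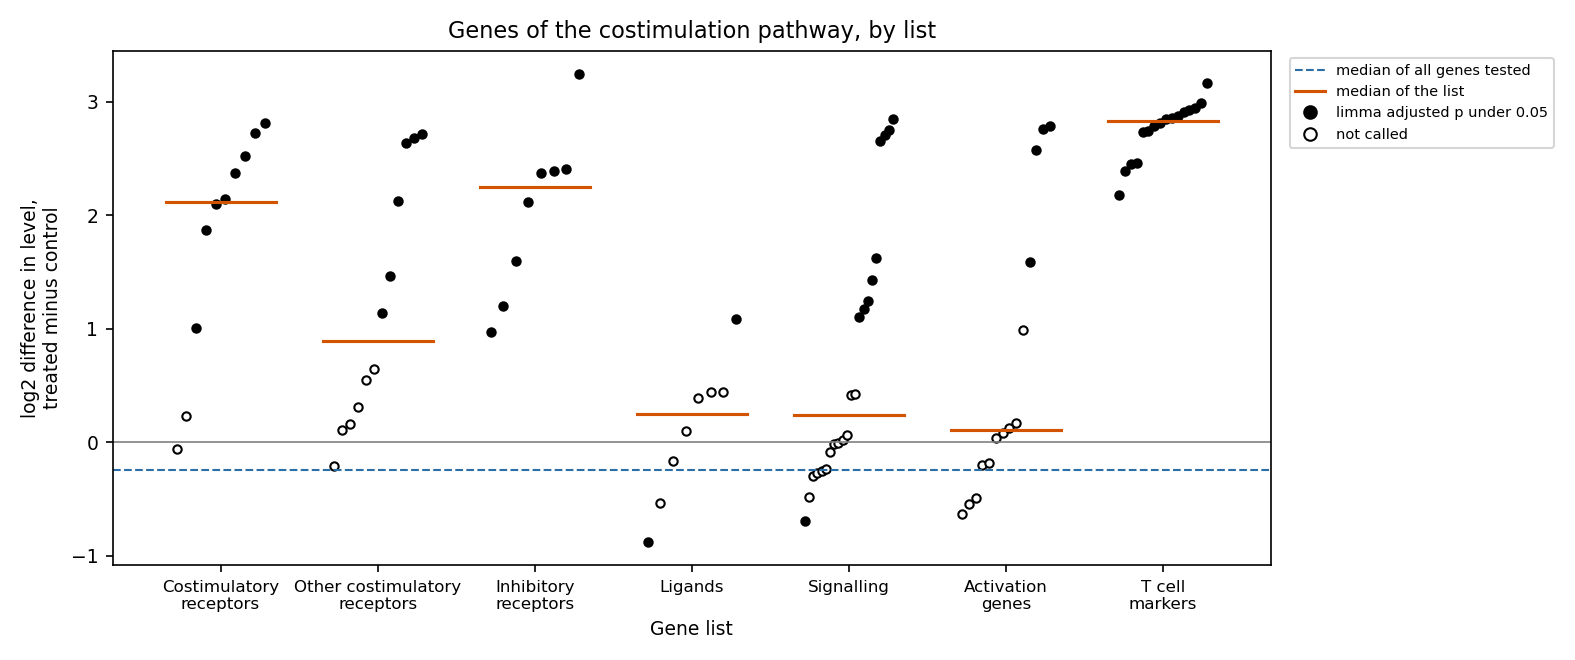
Treated minus control log2(TPM + 1) differences of the tested genes in each list, with the median of the list (bar) and that of all genes tested (dashed line), and called genes filled. The receptors had a median of 2.12, inhibitory receptors 2.25 and T cell markers 2.83, while ligands, signalling and activation genes had medians of 0.25, 0.24 and 0.11.

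Profiles over the 7 libraries were compared by the root mean square distance between log2(TPM + 1) values, each gene centred on its own mean, among 12263 candidate genes. The nearest to Cd28 were Cd3g at 0.13 and Ptpn22, a phosphatase of antigen receptor signalling, at 0.15. For Cd27 they were Klrd1, the CD94 receptor chain of cytotoxic cells, at 0.065 and Cd3g at 0.17, and for Tnfrsf9 Samd3 at 0.12 and Prf1, which encodes perforin, at 0.13. Cd226 was nearest to Cd69 at 0.16 and Tnfaip3 at 0.20, Cd2 to Ikzf3 at 0.099 and Ifi214 at 0.14, Slamf6 to S1pr4 at 0.080 and Ehd3 at 0.096, and Icos to Serpina3g at 0.077. The nearest genes to Tnfrsf18 were Adcy7 at 0.037 and Arhgap45 at 0.062, to Tnfrsf1b Zc3h12a at 0.093 and Rhog at 0.11, and to Tnfrsf4 Or51ab3 at 0.12 and Erap1 at 0.13. Between receptors the closest pair was Cd28 and Cd27 at 0.20 and the farthest Cd226 and Tnfrsf1b at 1.48.

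The deposited table lists each receptor in several transcript entries without transcript identifiers, so these are described and not tested. A single entry held most of the message for Tnfrsf1b (98.7%), Cd2 (96.2%), Icos (96.1%) and Cd28 (92.9%). Message was divided among more entries for Cd27, with 65.8% in the leading one of 6, Tnfrsf9, with 53.9% in the leading one of 9, Slamf6, with 45.7% in the leading one of 7, and Cd226, with 39.5% and 34.4% in the leading pair of 10. Entries were ranked by their mean over all 7 libraries. The summed level of Tnfrsf4 overlapped between the groups, while its leading entry did not. In controls that entry held 30.9% of Tnfrsf4 message and the next entry 53.5%. It led through the treated libraries, so its lack of overlap is in part set by the ranking. How often entries of other genes lack overlap was not computed. The leading Tnfrsf4 entry was at 1.11, 2.78 and 1.32 TPM in treated libraries and at 0.50, 0.56, 0.91 and 0.57 TPM in controls. As a share of Tnfrsf4 message it was 49.3%, 68.6% and 84.1% in treated libraries and 15.6%, 51.9%, 50.3% and 26.8% in controls, with treated library 1 below controls 2 and 3. The next Tnfrsf4 entry was at 0.69, 0.92 and 0.25 TPM in treated libraries and at 2.40, 0.32, 0.37 and 1.31 TPM in controls. Tnfrsf18 likewise had its leading entry at 5.18, 15.7 and 2.90 TPM in treated libraries and at 2.54, 1.37, 2.65 and 1.95 TPM in controls. As a share of Tnfrsf18 message this was 40.6%, 73.5% and 40.6% in treated libraries and 44.4%, 27.6%, 39.0% and 33.9% in controls, so that treated library 2 alone stood above all controls. Its next entry overlapped, at 4.69, 1.42 and 1.92 TPM in treated libraries and 1.52, 2.08, 2.29 and 2.13 TPM in controls. The sources used here do not say how reads were divided among the transcripts of a gene, so the split between entries is uncertain.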

How the data were processed

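TPM values of 7 libraries were deposited by the authors in 1 table of 149132 transcript entries. The tools fastp, HISAT2 and StringTie and the build mm39 are named, without roles or versions, per the submitters' processing notes. Which program computed TPM was not given in the sources used here. TPM carries no depth, so no counting interval or detection limit was computed. Library and treated-group names were matched by column name. 1 column bears the name of the treated group and a number absent from the treated samples' titles. It is called the third treated library and was never paired. There were 0 other value columns.

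TPM was summed per symbol (56422), leaving out 1001 entries without a symbol (0.3065% to 0.6176% of TPM). Genes that reached a TPM of 1 in 3 or more of the 7 libraries (14967) were compared on log2(TPM + 1) with limma 3.58.1 in R 4.3.3, using an intensity trend and Benjamini-Hochberg adjustment at 0.05. Per CD3 values were log2(TPM + 0.1) minus the log2 sum of Cd3d, Cd3e and Cd3g, in the same kind of fit. Ratios used a pseudocount of 0.1. The fits were also run on simulated data, and the outcome is not reported here.

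The 10 receptors and the lists were chosen with earlier results of these data known. Named genes were the receptors, their ligands and ratio partners, the 4 smallest p of each other list, the pair of nearest profiles per receptor, the CD3 chains and Cd8a. Some genes that this rule names are not reported here. Nfkb2 and Ptprc were named after their values were seen, as were Slamf1, Pvrig, Bcl11b and the single markers of other cells. Alternatives covered pseudocounts, filters, scalings, variance models, library weights, covariates, references in place of CD3, each library left out and a replicate block. An exact permutation test per CD3 was added after the values were seen. Promoter sequences are from RefSeq, build GRCm38.p6, and the entries not held there are those of Cd28, Icos and Cd2. Chromosome 18, where Cd226 lies, was left out when receptor promoters were read.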

Additional observations from a re-analysis of the deposited data

Results flagged for a closer look

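Of 37 sets of 4 control values examined, 5 had 1 library standing apart from the other 3 by Dixon's criterion, which chance gives for about 1 set in 20. Slamf6 was at 4.75 TPM in control 4, while the other controls were at 3.01 to 3.22 TPM. Control 3 stood apart for 3 measures: Tnfrsf18, at 26.26 TPM per 100 TPM of CD3 message with the others at 10.57 to 12.71, Tnfrsf1b, at 128.3 on the same scale with the others at 31.36 to 45.64, and the ligand Cd80, at 2.65 TPM with the others at 1.16 to 1.4 TPM. The GITR ligand Tnfsf18 was at 0.03 TPM in control 1 and listed at 0 in the other controls. Control 3 also had the lowest CD3 sum and the highest macrophage and monocyte sum, whose part in these values was not tested.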

How the results depend on the processing

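The count of 8 receptors called was 0 with no filter on low values (8 at an unadjusted p under 0.05, lowest limma adjusted p = 0.0656, 7 of 29687 genes called in all), 5 with the macrophage covariate, 0 with the CD3 covariate and 7 to 8 with each library left out. The cause was not tested. Neither covariate overlapped between the groups, so those fits cannot separate it from treatment. All genes called, 1779 as reported, numbered 7 with no filter, 2747 with mitochondrially encoded genes left out, 6467 with array weights, 500 with the macrophage covariate and 11 with the CD3 covariate. They ranged between 964 (without treated library 2) and 3434 (without treated library 1), with 1123 without control 2. Of the calls 36.1% were higher as reported, 57.8% with median-of-ratios scaling and 47.3% with quantile normalization, which moved the median of all genes to -0.0046 and -0.07. Per CD3, array weights gave 7 receptors called (2 higher, 5 lower) in place of 3, and leaving out each library gave 3 each time and 14246 to 14456 genes in all. The ratio differences ranged over 0.29 to 0.99 for Ctla4 to Cd28, -0.83 to -0.70 for Icos to Cd28 and -1.27 to -0.28 for Tigit to Cd226.

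The sign of the level difference turned with the CD3 covariate for Icos (-0.20), Tnfrsf9 (-0.23), Tnfrsf4 (-0.91), Tnfrsf18 (-0.41), Cd27 (-0.32) and Slamf6 (-0.045), and for Tnfrsf4 without treated library 2 (-0.036, with 0.45 at the other end without the third treated library). Because the CD3 sum did not overlap between the groups, the fit with that covariate cannot separate it from treatment. Tnfrsf1b turned to 0.051 with mitochondrial genes left out, 0.21 with median-of-ratios scaling, 0.14 with quantile normalization, 0.54 with array weights, 0.44 with the macrophage covariate, 0.057 without treated library 1, 0.15 without the third treated library and 0.14 without control 3. Its lowest difference was -0.69 with the CD3 covariate, and -0.37 without treated library 2 among the fits that left out 1 library. Per CD3, a pseudocount of 1 turned Cd28 (-0.19) and Cd226 (-0.10), leaving out control 2 turned Cd226 (-0.12, against 0.94 without control 3), and Ptprc as the reference turned Icos (0.50), Tnfrsf9 (0.39), Cd27 (0.57), Cd2 (0.27) and Slamf6 (0.18).

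Numbers 1 and 2 are the ones that treated and control columns share with certainty, since the number of the third treated library is unclear, and no label says that numbers pair. Same-numbered libraries did not deviate together (r = -0.019 and -0.090 across 14967 genes, which are not independent replicates). A replicate block over these 4 libraries called 8 receptors and 712 genes, against 613 genes without the block, and turned Tnfrsf1b to 0.21. Per CD3 it called 2 receptors, Tnfrsf18 no longer among them, and 2 were also called in these 4 libraries without the block. TPM carries no depth, so how far depth limits the low values of Icos, Tnfrsf4 and the ligands is unknown.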
